A study of Homo sapiens with 24 samples.

Results

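The regions described here carried a called domain of H4K20me3, histone H4 trimethylated at lysine 20, in A-196-treated HN-SCC-151 cells and none in the control cells. They were chosen from the deposited peak lists on a grid of 1 kb bins. A bin was taken where peaks of 2 or 3 of the 3 A-196 libraries covered it and no peak of the 3 DMSO or the 4 siNC libraries did. Bins covered in all 4 siSUV420H1 libraries were dropped, adjacent bins were joined and regions of 5 kb or more were kept. The rule found 1165 gained regions with a total length of 6814 kb. These were 1.72% of the 396334 kb lying under a peak of any of the 14 libraries, and 8.21% of the 83006 kb that lay under an A-196 peak but under no control peak. Because the peak calls of all groups chose the members, their presence in A-196 and absence in DMSO and siNC are descriptions and were not tested.

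The study mapped H4K20me3 by CUT&RUN, in which an antibody brings a nuclease to marked nucleosomes and the DNA cut loose there is sequenced. HN-SCC-151 is an HPV-negative line of head and neck squamous carcinoma, and every group was the same line, labelled wild type. The groups were DMSO, the solvent control (3 libraries), A-196 at 2.5 µM (3 libraries), siNC, the control siRNAs (4 libraries), and siSUV420H1, siRNAs against SUV420H1 (4 libraries), all kept for 6 days. The design text gives 3 dishes per condition, so some of the 4 libraries of an siRNA group may share a dish. The tests treat the siRNA libraries as independent of each other, and p-values measure only the spread between these libraries of 1 cell line.

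SUV420H1, encoded by KMT5B, and its relative SUV420H2, encoded by KMT5C, are the methyltransferases that add the second and the third methyl group to lysine 20 of histone H4, and A-196 inhibits both enzymes. H4K20me3 is a mark of silent chromatin and is known from pericentromeric and telomeric heterochromatin, from retroelements and from clusters of zinc finger genes.

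The A-196 libraries stood apart from the others in the size of their peaks. They held 8505, 13464 and 9798 peaks over 79.6, 103.9 and 107.1 Mb in replicates 1, 2 and 3, against 8430 to 8921 peaks over 144.9 to 153.0 Mb in DMSO. Peaks of exactly 5 kb, the narrowest that the lists hold, made up 38.3%, 44.4% and 30.8% of the A-196 peaks, 12.2% to 14.4% of the DMSO peaks and 9.05% to 13.3% of the siRNA peaks. Replicate 2 of A-196 had the most peaks, and it alone covered 44322 kb that no control and no other A-196 library covered, against 14744 kb for replicate 1 and 14492 kb for replicate 3. Read depth is not in the lists, and its part in these differences was not tested.

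Whole promoters were listed in 75 of the 1165 gained regions, and they describe the sequence of those regions alone. Of 35116 promoter windows in the RefSeq table of GRCh38.p14, each 250 bases before to 50 bases after a start site, 88 lay wholly in a gained region (0.251%). Gained regions took up 2.21 kb per Mb of the annotated genome. The promoter list lacks a chromosome that is rich in gained regions, as the processing part states. The counts of promoters therefore leave that chromosome out, and the shares were not taken over the same chromosomes. The 88 windows belonged to 82 symbols, with 43 windows of coding genes and 45 of long noncoding RNAs, and 19 of them were covered in all 3 A-196 libraries. Ordered by A-196 libraries and then by region width, the first 5 symbols include 3 coding genes, whose promoters are printed here. Capitals mark each CpG dinucleotide (the letters CG, which read the same on both strands), the site of DNA methylation in human cells, and sequences run from 5′ to 3′ along the gene's strand. ZNF256, a zinc finger gene of the distal end of chromosome 19, starts in chr19:57947657-57947956 on the minus strand and has 26 CpG. ZNF446, a neighbour of the same gene class at chr19:58476102-58476401 on the plus strand, has 33 CpG. Another ZNF446 window in the same region, chr19:58476929-58477228, is not printed and has 3 CpG. CLCN1, the chloride channel of skeletal muscle, at chr7:143315861-143316160 on the plus strand, has 4 CpG and shows the CpG-poor kind.
ZNF256 promoter: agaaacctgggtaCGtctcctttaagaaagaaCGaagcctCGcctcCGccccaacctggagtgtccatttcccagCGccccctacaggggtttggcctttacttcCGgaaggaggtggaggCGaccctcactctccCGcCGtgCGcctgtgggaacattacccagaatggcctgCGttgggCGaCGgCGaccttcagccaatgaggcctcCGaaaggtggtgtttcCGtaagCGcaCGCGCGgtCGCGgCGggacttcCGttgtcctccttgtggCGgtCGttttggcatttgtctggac
ZNF446 promoter: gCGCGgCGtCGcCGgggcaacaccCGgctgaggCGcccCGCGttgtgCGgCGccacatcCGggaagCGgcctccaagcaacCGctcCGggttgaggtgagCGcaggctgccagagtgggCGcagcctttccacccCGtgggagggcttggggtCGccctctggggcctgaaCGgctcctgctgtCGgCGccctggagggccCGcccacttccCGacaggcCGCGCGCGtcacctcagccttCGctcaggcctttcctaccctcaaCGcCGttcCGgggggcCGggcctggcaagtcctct
CLCN1 promoter: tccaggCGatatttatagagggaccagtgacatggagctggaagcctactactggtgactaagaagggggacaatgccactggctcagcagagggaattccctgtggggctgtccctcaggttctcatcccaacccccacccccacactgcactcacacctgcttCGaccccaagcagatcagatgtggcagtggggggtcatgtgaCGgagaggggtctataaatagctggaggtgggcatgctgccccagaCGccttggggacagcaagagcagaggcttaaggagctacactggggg

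The ZNF256 promoter lay in a gained region of 9 kb (chr19:57946001-57955000) that replicates 1, 2 and 3 of A-196 each covered over all 9 kb. The region of ZNF446 (chr19:58472001-58480000) was covered over 6, 8 and 7 of its 8 kb, and that of CLCN1 (chr7:143313001-143320000) over 5, 7 and 7 of its 7 kb. No siSUV420H1 library had a peak in these 3 regions. The remaining promoters that the ordering put first belonged to the noncoding RNAs LOC105379444 on chromosome 9, with 27 CpG, and LINC00960 on chromosome 3, with windows of 15 and 22 CpG. Both of their regions carried siSUV420H1 peaks as well, over 7, 0, 9 and 0 kb at LOC105379444 and over 8, 8, 8 and 0 kb at LINC00960. Over the 88 listed windows the CpG count ran from 0 to 42 with a median of 6.5, against a median of 14 in the whole table. A count of 15 or more was found in 30 windows (34.1%), against 48.9% of all windows, and 12 of the 30 were on chromosome 19.

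The gained regions also held 7 of the 1562 microRNA hairpins of the RefSeq table. Gained regions took up 2.21 kb per Mb of the annotated genome, and the hairpin count was not tested against that share. MIR4266, MIR1324 and MIR1299 lay on chromosomes 2, 3 and 9. The other 4 belong to the large microRNA cluster of chromosome 19 (chr19:53666679-53788773, 47 hairpins), an imprinted cluster known for its expression in the placenta. The mature sequences of those 4 are given with the seed, bases 2 to 8, in capitals, and all lie on the plus strand.
hsa-miR-515-5p: uUCUCCAAaagaaagcacuuucug
hsa-miR-519e-5p: uUCUCCAAaagggagcacuuuc
hsa-miR-515-3p: gAGUGCCUucuuuuggagcguu
hsa-miR-519e-3p: aAGUGCCUccuuuuagaguguu
hsa-miR-524-5p: cUACAAAGggaagcacuuucuc
hsa-miR-524-3p: gAAGGCGCuucccuuuggagu
hsa-miR-519d-5p: cCUCCAAAgggaagcgcuuucuguu
hsa-miR-519d-3p: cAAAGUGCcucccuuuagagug

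MIR515-1 and MIR519E share the seed UCUCCAA in their 5p arms and AGUGCCU in their 3p arms, while the arms of MIR524 and MIR519D each have a seed of their own among these sequences. MIR515-1 and MIR519E sat in a region of 6 kb (chr19:53677001-53683000), and MIR524 and MIR519D in one of 5 kb (chr19:53709001-53714000). Replicates 2 and 3 of A-196 covered both regions whole, and replicate 1 covered neither. Over the whole cluster the peaks of A-196 replicates 1, 2 and 3 covered 13, 16.3 and 26 kb. No DMSO, siNC or siSUV420H1 library had a covered base there, so called domains in the cluster were seen with the inhibitor alone, and those of replicate 1 lay outside the 2 gained regions.

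The gained regions were short and rested on different pairs of A-196 libraries. Of the 1165, 736 were 5 kb wide, 210 were 6 kb, 97 were 7 kb and 122 were 8 kb or wider. Only 37 reached 10 kb, 9 were wider than 12 kb and the widest measured 41 kb. Replicates 1 and 2 without replicate 3 supplied 419 regions, replicates 2 and 3 supplied 368, replicates 1 and 3 supplied 138, and 240 regions had a peak of all 3 libraries. Within the regions, replicate 1 covered 4549 kb (66.8%), replicate 2 5808 kb (85.2%) and replicate 3 4370 kb (64.1%). Stretches covered in all 3 libraries were found in 232 regions (19.9%) and added up to 1099 kb. In 140 regions the bins covered in all 3 added up to at least 5 kb, and 50 regions were covered whole in all 3.

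**Figure D1:**
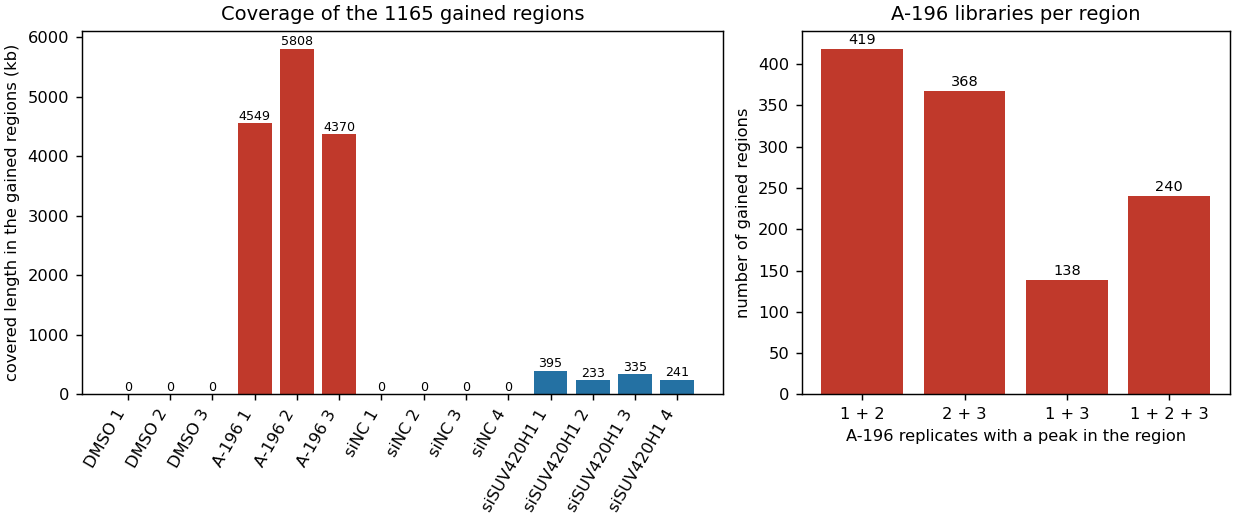
The left panel shows, for each of the 14 libraries, the length in kb that its peaks covered within the 1165 gained regions, and the right panel counts the regions by the A-196 replicates that had a peak in them. The DMSO and siNC bars stand at 0 because the rule demanded it, the A-196 bars lie between 4370 and 5808 kb, and pairs that include replicate 2 supplied more regions than replicates 1 and 3.

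How far a library that played no part in the choice carried the same domains was read by choosing regions in 2 A-196 libraries and looking in the third. In the 554 regions chosen in replicates 2 and 3, replicate 1 covered 29.9% of the 3211 kb, against 0.746% of all bins free of control peaks. Replicate 2 covered 50.2% of the 1965 kb in the 330 regions chosen in replicates 1 and 3, against 1.86% of control-free bins. Replicate 3 covered 27.9% of the 3361 kb in the 595 regions chosen in replicates 1 and 2, against 0.741%. The held-out library thus had a peak in 186 of 554, 190 of 330 and 173 of 595 regions. It was in every case far above its own level in control-free bins and, at 33.6%, 57.6% and 29.1% of regions touched, absent from many of them. In regions of 10 kb or more, which numbered 16, 11 and 6, the held-out library covered 54.3%, 66.4% and 81.3% of the length. No p is given for these percentages, because bins of 1 library are not replicates.

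The cut at 5 kb divides joined stretches that differ by a single bin. Joined stretches of 4 kb, just outside, numbered 246, of which 18 (7.32%) held a bin common to all 3 A-196 libraries and 51 (20.7%) were touched by an siSUV420H1 library. Among the 736 regions of 5 kb, just inside, 68 (9.24%) held a common bin and 73 (9.92%) were touched by an siSUV420H1 library. Peaks in the lists were themselves at least 5 kb wide, so a 4 kb stretch is always a part of larger peaks.

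Most gained regions lay away from the domains of the control cells. The distance to the nearest control peak had a median of 38 kb and reached 2013 kb. Of the regions, 87 adjoined a control peak, 213 lay 1 to 9 kb away, 496 lay 10 to 99 kb away and 369 (31.7%) lay 100 kb or more away. An A-196 peak that ran on from the region into a control-covered bin was found in 112 regions (9.61%), and in the other 1053 no A-196 peak ran on into such a bin, although some of these adjoin a control peak. In 266 regions (22.8%) peaks of 2 A-196 libraries began and ended at the same bins, and in 624 (53.6%) their ends lay within 1 kb of each other. The rule itself favours such matches. Where peaks of exactly 5 kb from 2 libraries alone make a region, it is kept only if their ends are the same. The counts of matching ends therefore do not measure how well the libraries matched, and their excess over what the rule imposes was not tested.

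The gained regions were unevenly spread over the chromosomes. Over the annotated genome they took up 2.21 kb per Mb, but 10.6 kb per Mb on chromosome 19 (93 regions), 7.73 on chromosome 20 (90 regions), 5.52 on chromosome 7 (124 regions) and 4.09 on chromosome 8 (105 regions). The lowest densities were 0.258 kb per Mb on chromosome 4 (9 regions), 0.372 on chromosome 17 (6 regions) and 0.390 on chromosome 12 (9 regions). Peaks found in A-196 replicate 2 alone had their highest densities on chromosomes 20 (43.4 kb per Mb), X (25.6) and 8 (24.2), against 14.4 over the genome. Regions seen in replicates 1 and 2 but not 3 made up 51.6% of the regions on chromosome X, 45.6% on chromosome 20 and 43.8% on chromosome 8, against 36.0% over the genome. On chromosome 19 that pair supplied 15.1%, and 37.6% of the regions had a peak of all 3 libraries. Chromosomes 7 and 11 also had high shares of regions with all 3, at 35.5% and 30.4%, against 20.6% over the genome. The number of chromosome copies in these cells was not analysed here, so its part in these densities was not tested.

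**Figure D2:**
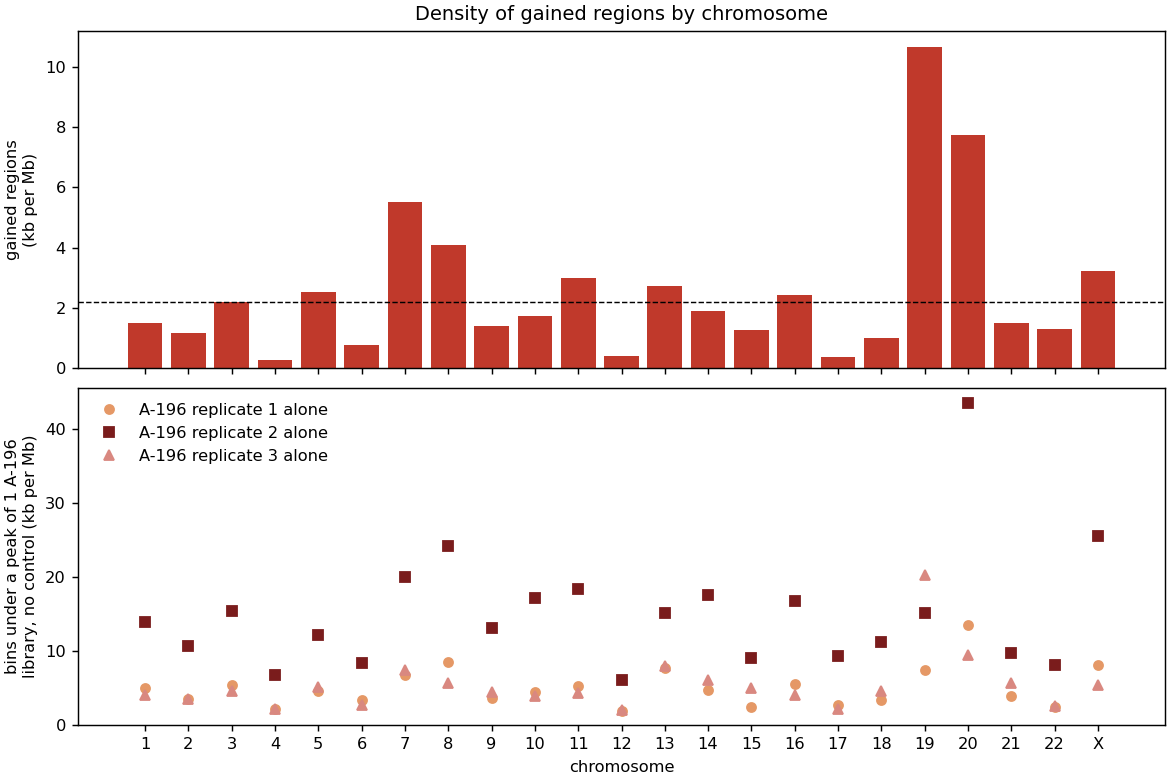
The upper panel gives the length of gained regions per Mb of each chromosome, with a dashed line at the genome value of 2.21, and the lower panel gives the density of bins covered by 1 A-196 replicate alone and by no control. Chromosomes 19, 20, 7 and 8 are highest above, and A-196 replicate 2 alone is highest on chromosome 20 below.

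In windows of 5 Mb the regions clustered further. Of 631 windows, 282 (44.7%) held none and 21 held 10 or more. The 4 richest windows held 104 regions and 776 kb, or 11.4% of the gained length, and 6 of the 9 regions wider than 12 kb. They were 55 to 60 Mb of chromosome 7, 20 to 25 Mb of chromosome 19, 65 to 70 Mb of chromosome 11 and the end of chromosome 19 from 55 Mb on. Covered lengths given below for whole windows include the gained bins, which the rule leaves without control peaks.

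The window of chromosome 7 begins at EGFR, the receptor for epidermal growth factor and a known amplification site in head and neck carcinoma. It held 20 regions and 221 kb, of which A-196 replicates 1, 2 and 3 covered 169, 180 and 190 kb and all 3 together 97 kb. The siSUV420H1 libraries 1 to 4 covered 39, 5, 41 and 16 kb of the same 221 kb. Within the gained length the A-196 libraries were high and the siSUV420H1 libraries low and unequal. Over the whole window, gained or not, the covered length was 1770, 1673 and 1779 kb in DMSO, 2110, 2089 and 2270 kb in A-196, 1676, 1661, 1631 and 1638 kb in siNC and 1780, 1705, 1775 and 1720 kb in siSUV420H1. There the A-196 libraries were above all others, and every siSUV420H1 library was above every siNC library.

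The widest region of all, chr7:56328001-56369000 of 41 kb, was covered over 41, 28 and 34 kb in A-196 replicates 1, 2 and 3, adjoined a control domain and overlapped no coding gene. The second widest, just before the window at chr7:54657001-54685000 of 28 kb, lay 73 kb from any control peak and 67.3 kb from SEC61G, which encodes a subunit of the protein channel of the endoplasmic reticulum. A-196 replicates 1, 2 and 3 covered 28, 28 and 23 kb of it, and it held the greatest summed length common to all 3 (23 kb). Next came chr7:55322001-55346000 of 24 kb, covered over 23, 20 and 16 kb, 19.3 kb from LANCL2, a LanC-like protein. Each of these 3 regions was thus carried by all 3 A-196 libraries, in contrast to most gained regions.

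EGFR itself (chr7:55019017-55211628) overlapped 2 gained regions over 6.63 kb. Replicates 1 and 3 of A-196 covered all of that length and replicate 2 none of it. Over the whole EGFR span the covered length was 10.984, 9.984 and 10.984 kb in DMSO, 15.6, 10 and 15.6 kb in A-196, 5, 6, 5 and 0 kb in siNC and 0, 5, 0 and 0 kb in siSUV420H1, so the gene was only lightly marked in every group. The regions lay around the gene more than in it. Within 500 kb of EGFR were 15 regions of 146 kb in all, covered over 131, 126 and 119 kb in the A-196 libraries. VOPP1, whose product is a vesicular protein often overexpressed in cancers, held 2 regions of 14 kb, covered over 14, 13 and 12 kb. ZNF713, a zinc finger gene farther along, held 22 kb, covered over 13, 20 and 20 kb, beside 21.2 to 23.2 kb of domain over its span in every DMSO and siNC library.

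**Figure D3:**
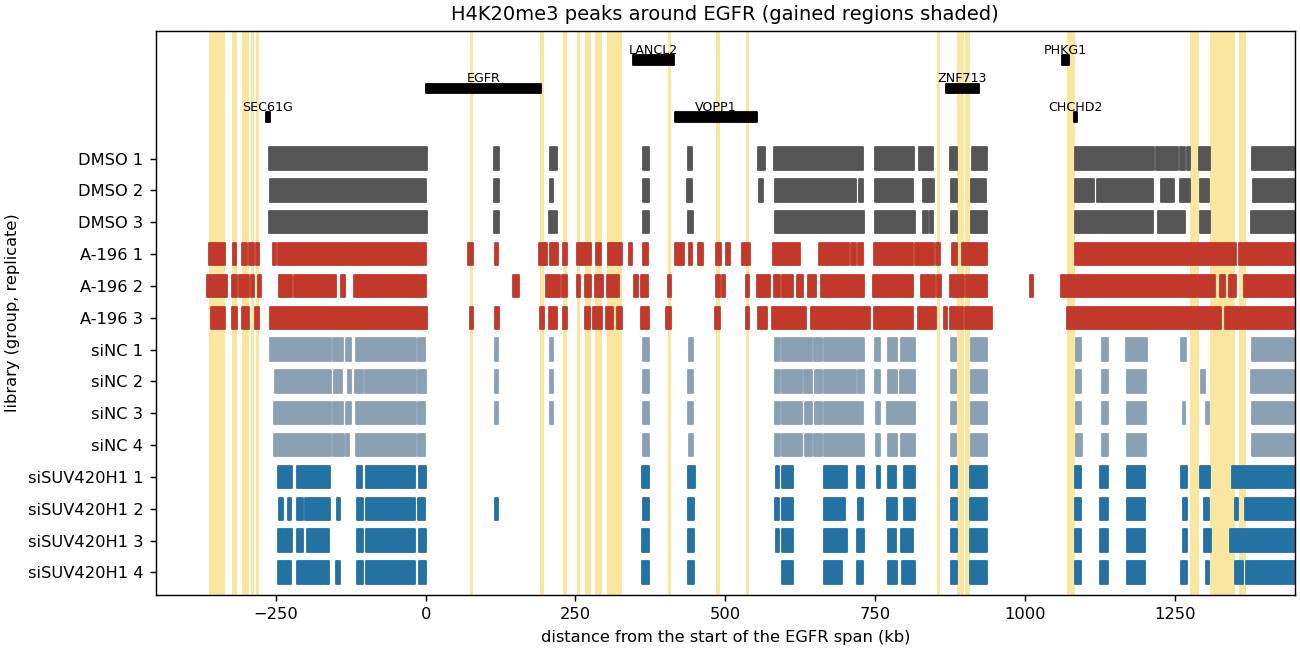
Peaks of the 14 libraries are drawn as blocks along the distance in kb from the start of the EGFR span, with gained regions shaded and selected genes in black. The shaded regions are filled in the A-196 libraries on both sides of EGFR, while the broad control domain to its left is present in all groups.

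The window of chromosome 11 surrounds KMT5B, the gene of the enzyme that A-196 inhibits. It held 32 regions and 192 kb, the largest number of regions in any window. A-196 replicate 2 covered all 192 kb, replicate 1 covered 133 kb and replicate 3 98 kb, and 39 kb were common to the 3. The siSUV420H1 libraries covered 7, 0, 1 and 0 kb. Over the whole window, gained or not, the DMSO libraries covered 294, 254 and 308 kb and the A-196 libraries 459, 1008 and 403 kb. Replicate 2 was thus far above the other 2 A-196 libraries. Those 2 were above every DMSO library, but their lengths include 133 and 98 kb of gained bins, which the rule leaves without DMSO peaks. Their order against DMSO therefore rests in part on the rule. The siNC libraries covered 379, 386, 368 and 403 kb and the siSUV420H1 libraries 230, 164, 236 and 171 kb. A-196 replicate 3 was thus no higher than siNC replicate 4.

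KMT5B (chr11:68154863-68213648) overlapped no gained region, and the nearest lay 223 kb to its left and 166 kb to its right. KMT5C, on chromosome 19, overlapped none either, with 1 region of 8 kb within 500 kb. LOC112268076, an uncharacterised coding gene left of KMT5B, held 5 regions of 29 kb, covered over 9, 29 and 25 kb, so that 4 of the 5 were missing in replicate 1. LRP5, a Wnt co-receptor on the other side, held 2 regions, 1 seen in replicates 1 and 2 and the other in replicates 2 and 3.

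CCND1, which encodes cyclin D1 and sits in another known amplification site of head and neck carcinoma, overlapped no gained region. The nearest began 3.53 kb to its right, and 17 regions of 101 kb lay within 500 kb, covered over 90, 101 and 46 kb in A-196 replicates 1, 2 and 3. FGF4, a fibroblast growth factor gene next to it, overlapped 1 region of 7 kb (chr11:69772001-69779000), covered whole in replicates 1 and 2 and not at all in replicate 3.

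**Figure D4:**
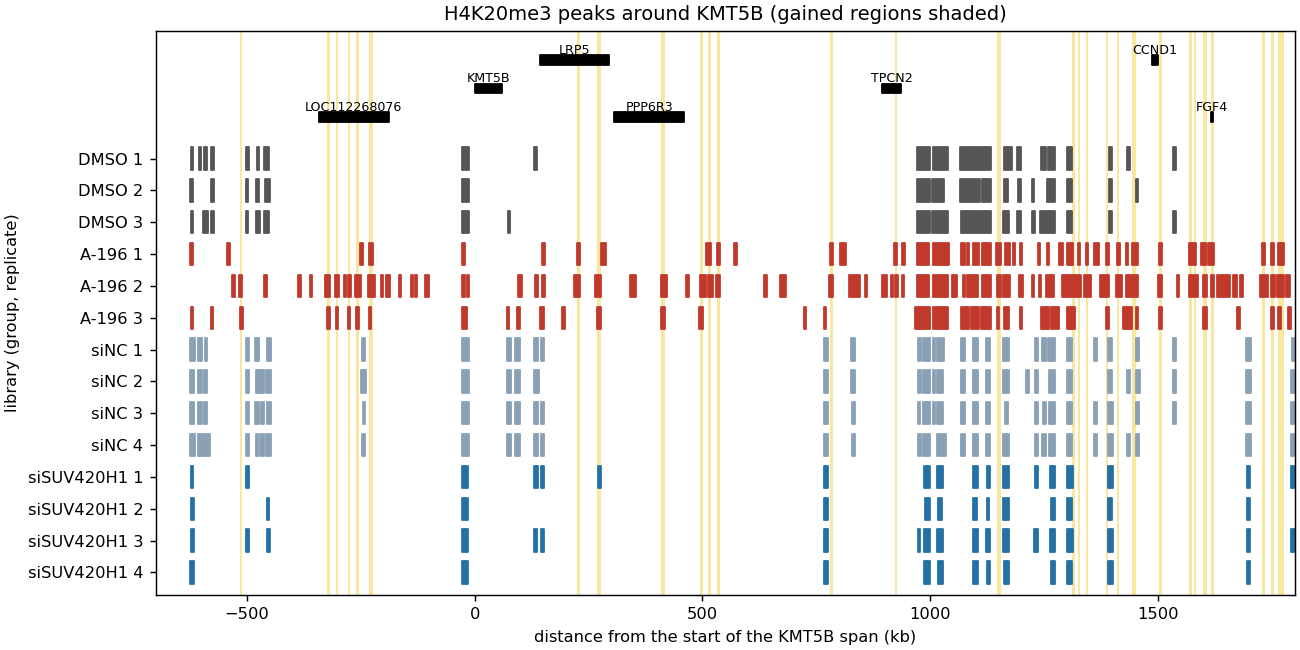
Peaks of the 14 libraries are drawn along the distance in kb from the start of the KMT5B span, with gained regions shaded and selected genes in black. The A-196 peaks in the shaded regions are narrow and most numerous in replicate 2, and no gained region falls on KMT5B or CCND1.

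Other rich windows differed in what they held. From 25 to 30 Mb of chromosome 5, a stretch in which no coding gene met a gained region, 16 regions of 94 kb were covered over 56, 80 and 69 kb in A-196 replicates 1, 2 and 3. Over that whole window the covered length was 229, 275 and 195 kb in DMSO, 347, 409 and 538 kb in A-196, 84, 122, 177 and 76 kb in siNC and 192, 815, 190 and 555 kb in siSUV420H1. Every A-196 library was above every control library, and knockdown replicates 2 and 4 stood far above replicates 1 and 3. From 150 to 155 Mb of chromosome X, 13 regions of 77 kb were covered over 67, 65 and 28 kb with A-196 and by no siSUV420H1 library. Over that whole window the A-196 libraries covered 164, 451 and 101 kb and the DMSO libraries 59, 49 and 75 kb. The siNC libraries covered 99, 93, 105 and 95 kb, so A-196 replicate 3 lay within their range. Among the genes touched were L1CAM, a neural adhesion molecule, and F8, the clotting factor VIII gene. From 50 to 55 Mb of chromosome 19, 14 regions of 88 kb, covered over 53, 57 and 75 kb, touched the immune receptor genes FPR3, SIGLEC7, SIGLEC8 and KIR2DS4 beside zinc finger genes. Over that whole window the A-196 libraries covered 1231, 1249 and 1658 kb and the DMSO libraries 1261, 1169 and 1241 kb. A-196 replicates 1 and 2 thus lay within the DMSO range.

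Zinc finger genes of the C2H2 class, whose clusters are a known home of H4K20me3, had the largest number of touched genes among the lists, though not the largest share. Of 556 such genes 37 (6.65%) overlapped a gained region, against 2.05% of all 20037 coding genes. Of the 37, 27 lay on chromosome 19, which holds 258 of the 556, and 16 of these beyond 52 Mb. Chromosome 19 also had the highest density of gained regions, 10.6 kb per Mb against 2.21 over the genome. Its part in the share of zinc finger genes was not tested. Over their spans 22 of the 37 also carried a peak in some control library, and 15 carried none. The genes shared 42 regions, of which 16 were touched by an siSUV420H1 library.

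ZSCAN1, a zinc finger gene with a SCAN domain (chr19:58034025-58056502), had 13.5 kb of gained regions over its 22.5 kb span. A-196 replicates 1 and 3 covered all 13.5 kb and replicate 2 covered 6.50 kb, while no DMSO, siNC or siSUV420H1 library had a peak on the gene. ZNF71 (chr19:56595302-56624486) had 17 kb, covered over 13, 5 and 17 kb with A-196 and over 11, 8, 5 and 6 kb after SUV420H1 knockdown, and none in the controls. ZNF682 (chr19:19995131-20039505) had 9 kb, covered over 8, 9 and 9 kb with A-196 and over 8, 1, 0 and 0 kb after knockdown. Unlike the former 2 genes it carried control peaks elsewhere in its span. Over the whole ZNF682 span the siNC libraries covered 5, 8, 9 and 0 kb and each DMSO library 0 kb. The A-196 libraries covered 15, 14 and 15 kb of it and the siSUV420H1 libraries 11, 20.5, 0 and 14 kb. ZSCAN1, ZNF71 and ZNF682 were marked in all 3 A-196 libraries and differed in how far the knockdown libraries covered the gained bins. At ZSCAN22, a neighbour of the same class, replicates 1 and 3 covered 4.01 kb and replicate 2 only 0.007 kb.

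Near the centromere of chromosome 19, the window from 20 to 25 Mb held 29 regions of 201 kb, covered over 135, 146 and 175 kb with A-196 and over 70, 30, 61 and 43 kb by the siSUV420H1 libraries. Over the whole window, gained or not, the DMSO libraries covered 1521, 1375 and 1329 kb and the A-196 libraries 1636, 1431 and 2826 kb. The siNC libraries covered 1451, 1597, 1596 and 1428 kb and the siSUV420H1 libraries 2826, 2713, 2699 and 2591 kb. There A-196 replicate 2 lay within the range of the control libraries, and every siSUV420H1 library was above every control library. At the other end, from 55 Mb on, 23 regions of 162 kb were covered over 127, 102 and 151 kb with A-196 and over 18, 8, 13 and 6 kb by the siSUV420H1 libraries. Over that whole window every A-196 library, at 1092, 1012 and 1293 kb, was above every other library, at 594 to 909 kb. Knockdown peaks therefore took up more of the gained length in the former window in each of the 4 libraries, a difference that was not tested because the rule used those libraries.

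Most gained regions lay outside coding genes. Of the regions, 449 (38.5%) overlapped a coding gene, 716 did not, 245 overlapped a long noncoding RNA and 473 no annotated gene at all. The share of the genome within coding gene spans is not given here, so these counts do not show a preference for or against genes. The 411 coding genes touched (2.05% of 20037) had a median length of 119 kb, against 24.1 kb for all coding genes, and 56 of them (13.6%) were longer than 500 kb, against 1.57% of all. A long gene offers more bins to be hit, and gene counts here were not corrected for length. Of the 411 genes 377 held a single region, 34 held 2 or more, and 216 (52.6%) had no control peak anywhere in their span.

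PTPRN2, a receptor-type tyrosine phosphatase of secretory vesicles near the end of chromosome 7 (chr7:157539056-158587823), held the most, with 11 regions of 77 kb. A-196 replicates 1, 2 and 3 covered 51, 61 and 73 kb of these and shared 31 kb. Over the whole gene the covered length was 56, 47 and 55 kb in DMSO, 176, 233 and 183 kb in A-196, 42, 50, 41 and 44 kb in siNC and 105, 86, 101 and 84 kb in siSUV420H1. The lowest A-196 library was above every other library, and the siSUV420H1 libraries lay between the A-196 and the control libraries without overlap. Of the gained length the siSUV420H1 libraries covered 17, 3, 11 and 3 kb, so most of their peaks on the gene fell on other bins. The other receptor-type phosphatases touched were PTPRT, with 17 kb covered over 16, 14 and 8 kb, PTPRA and PTPRZ1, making 4 of 20 in the list, against 2.05% of all coding genes, with a median length of 189.6 kb in the list.

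Glypicans, the heparan sulphate proteoglycans anchored to the cell surface, were touched in 3 of 6 genes, against 2.05% of all coding genes. The median glypican gene measured 283 kb and the median coding gene 24.1 kb. GPC5 (chr13:91398621-92867237) held 5 regions of 31 kb, covered over 20, 22 and 24 kb in A-196 replicates 1, 2 and 3, of which 4 kb were common. Over its whole span the DMSO libraries covered 0 kb, the A-196 libraries 35, 71 and 87 kb, the siNC libraries 26, 11, 27 and 5 kb and the siSUV420H1 libraries 102, 315, 133 and 280 kb. The knockdown libraries were highest at this gene but covered only 0, 3, 0 and 0 kb of its gained regions, and replicates 2 and 4 stood above replicates 1 and 3. GPC3 and GPC6 held 5 kb each, in 2 libraries.

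Cadherins, the calcium-dependent adhesion proteins, were touched in 5 of 33 genes, against 2.05% of all coding genes, and their median length was 135 kb. CDH4 on chromosome 20 (chr20:61252261-61940617) held 4 regions of 24 kb, which A-196 replicates 1 and 2 covered whole and replicate 3 not at all, 206 to 681 kb from any control peak. CDH12 on chromosome 5 held 3 regions of 18 kb, covered over 11, 18 and 12 kb. Over its span no control library had a peak, whereas the A-196 libraries covered 35, 67 and 87 kb and the siSUV420H1 libraries 17, 21, 7 and 41 kb. CDH23 held 6 kb, covered over 6, 6 and 5 kb, and CDH13 held 11 kb, covered over 6, 11 and 5 kb. CTNND2, delta-catenin, a partner of cadherins in neurons, held 4 regions of 21 kb that lay 985 to 1129 kb from any control peak and were covered over 10, 16 and 16 kb. Each of its regions had peaks of 2 libraries, and no stretch was common to all 3. CDH4 rested on the same pair of libraries throughout, while CDH12 and CTNND2 drew on all 3.

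Further named genes differed in the libraries that supplied their regions. GABRG3, a subunit of the GABA-A receptor (chr15:26971181-27541984), held 11 kb covered over 11, 11 and 10 kb. CNTN6, a contactin, held 8 kb covered over 7, 8 and 5 kb. ASTN2, an astrotactin of migrating neurons, held 12 kb covered over 6, 12 and 12 kb. SRD5A2, steroid 5-alpha-reductase, held a region of 10 kb (chr2:31626001-31636000) covered over 10, 7 and 10 kb. All 3 A-196 libraries took part at these genes within the gained bins. Over the whole ASTN2 span the A-196 libraries covered 29, 56 and 48 kb, less than every DMSO (84, 68 and 87 kb) and every siNC library (72, 75, 86 and 68 kb). Over GABRG3 they covered 36, 31 and 86 kb, against 0 kb in each DMSO library and 64, 92, 100 and 81 kb in siNC. Over SRD5A2 they covered 15, 13 and 10 kb, against 5, 6 and 0 kb in DMSO and 20, 25, 24 and 16 kb in siNC. At CNTN6 the A-196 libraries covered 18, 20 and 28 kb, the DMSO libraries 0 kb and the siNC libraries 25, 20.2, 20 and 16 kb. Higher coverage with A-196 than in all controls was thus a property of the gained bins and not of these genes as a whole. By contrast the gained regions of KCNQ3, KCNH8 and KCNK13, which encode potassium channels, and of MACROD2, a hydrolase of ADP-ribose, were covered in replicates 1 and 2 alone. MACROD2 held 17 kb of gained regions, but its whole span was broadly marked in every group. The covered length was 103 to 119 kb in DMSO, 194 to 225 kb in siNC and 57 to 68 kb in siSUV420H1. In A-196 replicates 1, 2 and 3 it was 102, 149 and 67.2 kb, below every siNC library.

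Set beside the 2.05% of all coding genes, the other lists gave the following counts. Potassium channels were touched in 6 of 95 genes, sodium and calcium channels in 1 of 36 (CACNA1E), GABA-A receptors in 2 of 19, CSMD genes in 2 of 3, contactins in 1 of 13 and leucine-rich repeat adhesion proteins in 1 of 31 (TENM1). Imprinted genes were touched in 4 of 35 (ANO1, ZIM2, RTL1 and TFPI2) and olfactory receptors in 5 of 390. Squamous epithelial genes were touched in 1 of 33, which was EGFR. No gained region overlapped any of the 27 glutamate receptors, 53 clustered protocadherins, 39 HOX genes, 55 keratins, 62 genes of the epidermal differentiation complex, 44 interferon-stimulated genes, 45 chemokines or 23 markers of fibroblasts, endothelium and leukocytes. Several of these lists are of short genes, such as the epidermal differentiation complex with a median length of 2.09 kb, and gene length was not taken into account.

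Peaks of the siSUV420H1 libraries covered a small share of the gained length, as they did of the genome. Peak lists do not show how far the siRNAs lowered SUV420H1. The rule had excluded siNC peaks and bins with all 4 siSUV420H1 libraries, so the following is a description. The siSUV420H1 libraries 1 to 4 covered 395, 233, 335 and 241 kb, or 5.80%, 3.42%, 4.92% and 3.54% of the gained length. Over the genome these libraries covered a mean of 124.5 Mb of 3087 annotated Mb, so low coverage was not particular to the gained regions. None of the 4 had a peak in 1010 regions (86.7%), while 1, 2, 3 and 4 of them had one in 56, 53, 42 and 4 regions. Keeping the bins with all 4, which amounted to 237 kb, would have given 1187 regions.

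To compare the siRNA groups on regions they had not helped to choose, the choice was repeated with the inhibitor arm alone, a step added after the data had been seen. Bins covered in 2 or 3 A-196 and 0 DMSO libraries gave 1578 regions of 9641 kb. The siNC libraries covered 1414, 1535, 1514 and 1353 kb of these and the siSUV420H1 libraries 2246, 2069, 2068 and 2015 kb. Every siSUV420H1 library was above every siNC library. The means were 1454 ± 85.6 kb and 2099.5 ± 101 kb (SD, n = 4 each), 44.4% higher after knockdown (exact two-sided permutation test, p = 0.0286, the smallest these groups allow, and 0.0286 after Benjamini-Hochberg adjustment over 3 measures). The number of these regions with a peak was 303, 316, 318 and 283 in siNC and 399, 388, 365 and 377 in siSUV420H1.

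Over the whole genome the direction was the opposite, with a mean of 187.6 Mb covered in siNC and 124.5 Mb in siSUV420H1, a change of -33.7%. Outside the DMSO peaks, where these regions lie by construction, it was 65.1 ± 4.96 Mb in siNC and 47.2 ± 6.22 Mb in siSUV420H1. As a share of each library's covered bases, the inhibitor-chosen regions took up 0.775 ± 0.0258% in siNC and 1.69 ± 0.108% in siSUV420H1 (SD, n = 4 each, exact two-sided permutation test, p = 0.0286, adjusted 0.0286, 4 of 4 libraries higher). As a share of covered bases without a DMSO peak the values were 2.295%, 2.25%, 2.15% and 2.25% in siNC and 5.07%, 3.83%, 5.16% and 4.001% in siSUV420H1, with means of 2.24 ± 0.0606% and 4.51 ± 0.698% (exact two-sided permutation test, n = 4 each, p = 0.0286, adjusted 0.0286). Replicates 2 and 4 of the knockdown were the lower pair here, but both were above every siNC library.

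**Figure D5:**
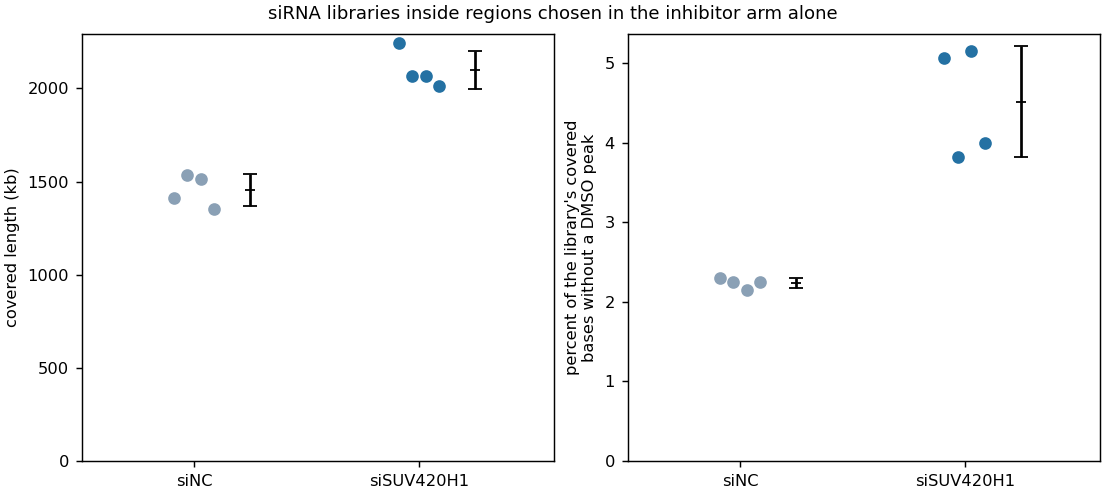
Points are the 4 siNC and 4 siSUV420H1 libraries inside the 1578 regions chosen from A-196 and DMSO alone, as covered length in kb (left) and as percent of the library's covered bases that lie outside DMSO peaks (right), with bars for the mean and SD. All siSUV420H1 points lie above all siNC points in both panels.

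The surroundings of the gained regions, 5 to 50 kb from their edges, were compared as well. These flanks came to 94.5 Mb and are not read by the rule, although they adjoin regions from which siNC peaks were excluded. The covered length was 8043, 8440, 8484 and 7721 kb in siNC and 8637, 9182, 8083 and 8680 kb in siSUV420H1. The groups overlapped, with 3 of the 4 knockdown libraries above every siNC library (exact two-sided permutation test, means 8172 ± 360.2 and 8645.5 ± 449 kb, n = 4 each, p = 0.143, adjusted 0.143). The difference of 473.5 kb turned to -589.75 kb with flanks of 5 to 100 kb (exact two-sided permutation test, p = 0.314), so the covered length showed no stable direction. The flanks held 4.36 ± 0.0869% of the covered bases in siNC and 6.94 ± 0.106% in siSUV420H1. All 4 knockdown libraries were above all siNC libraries in this share, which gave p = 0.0286 and, adjusted over the 2 flank measures, 0.0571 in the exact two-sided permutation test, past the threshold of 0.05 only without the adjustment. The base of this share is the covered length of the whole genome, on average 187.6 Mb in siNC and 124.5 Mb in siSUV420H1. A higher share therefore need not mean more covered length in the flanks. The same flanks held 4.22% of the covered bases in DMSO and 7.85% in A-196, given without a test because that contrast chose the regions.

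Set beside other classes of regions made by the same joining, the gained regions were the narrowest and the most often genic. Regions gained after knockdown (3 or 4 siSUV420H1 and no control library) numbered 637, regions lost in both arms 965 and regions covered in all 14 libraries 1909. The share of 10 kb or more was 3.18% in the gained regions, 10.7% after knockdown, 17.3% in lost and 41.4% in constitutive regions. A coding gene was overlapped by 38.5%, 30.1%, 25.4% and 28.9% of them in the same order. Of all coding genes 0.893% met a region gained after knockdown, 1.09% a lost region and 2.69% a constitutive region. Zinc finger genes numbered 37, 18, 4 and 195 in the 4 classes. In the outer 5 Mb of chromosomes lay 11.4%, 9.89%, 3.42% and 6.86% of the regions, against 7.78% of the annotated genome. The regions gained after knockdown had densities of 4.35 kb per Mb on chromosome 19 and 4.12 on chromosome 14, but 1.85 on chromosome 20, 1.58 on chromosome 7 and 0.481 on chromosome 11, where the regions gained with A-196 had 7.73, 5.52 and 2.99. Listed promoters wholly inside had a median CpG count of 6.5 in the gained regions, 13 after knockdown, 3.5 in lost and 10 in constitutive regions. Those of the gained regions include none on chromosome 8. The classes were defined by the same libraries, so these differences are described and not tested.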

How the data were processed

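H4K20me3 was read from 14 of the 24 samples, grouped by their titles, and IgG, H3K4me3 and H3K27me3 libraries were not used here. The values used are positions: each deposited list holds the starts and ends of broad peaks of 1 library, with no score or read count, so depth is unknown and no interval that needs it is given. Per the labels' protocols 500000 cells entered each reaction. The authors used build hg38 and ran Bowtie, bedtools 2.30.0, cutadapt 4.4 and Picard 2.27.3, per the submitters' processing notes. Per the labels of the lists, duplicates were removed and each library was called alone against 1 IgG library, from DMSO cells in the inhibitor arm and with no treatment in its title in the siRNA arm. The peak caller is not given in the sources used here. Peak ends lay on a 1 kb grid and no peak was under 5 kb, so smaller changes are invisible, and signal too weak to be called cannot be seen.

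Peaks were counted on the grid of 1 kb bins (Python 3.11.15, NumPy 2.4.6, pandas 2.3.3), the region finding was tested on simulated data, and siRNA groups were compared by exact permutation in SciPy 1.17.1. Gene spans, promoters and microRNAs came from RefSeq tables of GRCh38.p14, without exons. The list of promoters in gained regions holds no window on chromosome 8, where 105 gained regions lie. The span of SLURP1 lies wholly in a gained region there, so promoters of that chromosome appear not to have been read. Counts of promoters in gained regions therefore leave chromosome 8 out. Whether the whole promoter table includes it was not tested. Members and gene lists were chosen with earlier results of these data known. Named genes were the 10 with the longest gained overlap and the 10 with the greatest summed length common to the A-196 libraries. Also named were those in the 10 widest regions, the 5 with most regions, up to 4 per list, and KMT5B and KMT5C. LRP5, CCND1, FGF4, SEC61G and LANCL2 were named after their values were seen, for their place. So were the genes named with a 5 Mb window and those of printed promoters. Some genes that these rules name are not reported here. Alternatives covered widths, joining, libraries required or left out, peaks used, flanks and the replicate block.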

Additional observations from a re-analysis of the deposited data

Results flagged for a closer look

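The share of covered bases in the flanks of the gained regions was 4.23% in siNC replicate 4, against 4.39% to 4.41% in the other 3 siNC libraries. The gap to the nearest of them was large for the range of 4 libraries by Dixon's test at the 95% level. Chance marks about 1 in 20 groups in this way.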

How the results depend on the processing

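The number and length of the gained regions depended on the A-196 libraries required and on peak width. With all 3 A-196 libraries there were 140 regions of 835 kb (35.7% with a coding gene), from a smallest width of 10 kb 37 regions of 488 kb (29.7%), and with peaks of 10 kb or more 92 regions of 952 kb (29.3%); with the 8000 widest peaks per library the coding share was 34.6%. Leaving out each library in turn gave 330 to 1210 regions, 1965 to 7125 kb and coding shares of 36.97% to 39.3%; the low counts came without A-196 replicate 1 (554 regions, 3211 kb), 2 (330, 1965 kb) or 3 (595, 3361 kb), where both others are then required. The held-out coverage was 33.8% pooled, 27.9% to 50.2% by library, and 64.1% in regions of 10 kb or more. The flank difference, siSUV420H1 minus siNC, of 473.5 kb was 304.25 kb at 5 to 20 kb and 637.5 kb with peaks of 10 kb or more (both past the threshold) but -589.75 kb at 5 to 100 kb (exact permutation, p = 0.314); that of the share, 2.59 points, was 1.005 and 3.15 points under the former 2 settings, both past the threshold. These flanks lie beside regions from which the rule excluded siNC peaks. Around regions chosen in the inhibitor arm alone the flank differences were 1554.25 kb (exact permutation, p = 0.114) and 5.66 points (adjusted p = 0.0571), neither past the threshold. Without each siRNA replicate in turn the differences in the main flanks were 294.667 to 661 kb and 2.54 to 2.63 points. Inside the regions chosen in the inhibitor arm alone, added after seeing the data, the differences without each replicate were 596.667 to 673.667 kb, 0.873 to 0.946 and 2.06 to 2.51 points, all at an exact p of 0.0286. Replicate numbers did not pair the siRNA libraries (correlations of -0.645 to 0.283, and 1 of 4 libraries matched best by its own number). Another grouping was seen: siNC 2 and 3 went with siSUV420H1 2 and 4, and siNC 1 and 4 with siSUV420H1 1 and 3. The largest correlations were 0.624 (siNC 3 with siSUV420H1 2) and 0.570 (siNC 4 with siSUV420H1 3). The labels name no such groups, and the permutation tests took no account of them. With the replicate block the differences of 645.5 kb, 0.914 and 2.28 points had p = 0.125, the smallest that an exact sign-flip test of 4 pairs allows, so the block says nothing about their stability. The cause of these shifts was not tested. Read depth, which would limit what could be called, is unknown.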
